A study of Homo sapiens with 15 samples.

Results

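The regions described here are broad H3K27ac peaks that lie far from any protein-coding promoter in the human breast cancer line MDA-MB-231 and in a pair of its metastatic sub-populations. A peak was taken when it was under 10 kb long and shared no base with an H3K4me3 peak. It also had to lie over 100 kb from every GENCODE start of a protein-coding transcript. Starts of non-coding transcripts of protein-coding genes were not counted, so such a start can lie nearer. Of 62195 H3K27ac consensus peaks, 10291 (16.5%) met these criteria. Under 10 kb there were 60919 peaks, of which 11536 lay over 100 kb from a start, and 1245 of the latter were set aside for sharing a base with H3K4me3. The first peaks left out by the distance lay 99956, 99964 and 99971 bp from the starts of TPRG1, CAP2 and HS3ST1, and the first kept lay 100002, 100024 and 100025 bp from PTPRM, PTPRJ and RYBP.

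ChIP-seq of H3K27ac was compared between the parental MDA-MB-231 population (Par), a sub-population with high metastatic activity to the lung (LM2) and a sub-population with high metastatic activity to the brain (BrM2), with 2 biological replicates of each. MDA-MB-231 is an established triple-negative line, and LM2 and BrM2 were selected from it in mice, so each metastatic site is represented by 1 derivative of 1 line. No group carried a treatment, a knockout or a transgene named in the labels. All were cultured in medium with 10% serum, grown for 3 days and fixed with 1% formaldehyde according to the labels. H3K4me3 was measured in the same lines, also with 2 replicates of each, and is given below as a second readout. LM2 and BrM2 were compared with the same Par libraries, so these comparisons are not independent of each other.

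H3K27ac, acetylation of lysine 27 on histone H3, is placed by the acetyltransferases p300 and CBP and marks nucleosomes that flank active enhancers and active promoters. H3K4me3 is the mark of promoters, so H3K27ac without H3K4me3 is the usual reading of an active enhancer. Enhancers can act on a promoter over long distances by looping, and developmental regulators are known for long surrounding tracts of non-coding DNA in which such elements lie. Neither H3K4me1, chromatin accessibility nor enhancer activity was analysed here, so the peaks are called far-distal peaks rather than enhancers.

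These 4 sequences stand for gains described below, with each peak named after its nearest protein-coding gene (GRCh37). The SPANXA1 peak was marked in LM2 and BrM2 but not in Par, and the MAT2B, KIRREL3 and ADAMTS5 peaks were marked in BrM2. Shown for each are the 300 bases of the peak that hold the most matches to 8 short motifs, with all matches in capitals.
SPANXA1 peak, chrX:140556920-140557219, plus strand: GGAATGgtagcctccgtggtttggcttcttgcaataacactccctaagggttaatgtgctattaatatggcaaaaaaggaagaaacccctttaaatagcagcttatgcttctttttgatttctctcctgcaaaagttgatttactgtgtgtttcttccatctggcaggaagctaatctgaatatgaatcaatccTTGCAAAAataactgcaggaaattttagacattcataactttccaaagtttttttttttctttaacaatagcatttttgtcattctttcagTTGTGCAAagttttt
MAT2B peak, chr5:163629704-163630003, plus strand: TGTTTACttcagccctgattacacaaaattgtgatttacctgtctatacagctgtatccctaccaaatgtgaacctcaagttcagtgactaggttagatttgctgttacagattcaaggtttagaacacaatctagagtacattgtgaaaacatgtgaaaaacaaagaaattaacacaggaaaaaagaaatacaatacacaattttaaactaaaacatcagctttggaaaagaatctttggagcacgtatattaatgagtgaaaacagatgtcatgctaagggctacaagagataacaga
KIRREL3 peak, chr11:126687061-126687360, plus strand: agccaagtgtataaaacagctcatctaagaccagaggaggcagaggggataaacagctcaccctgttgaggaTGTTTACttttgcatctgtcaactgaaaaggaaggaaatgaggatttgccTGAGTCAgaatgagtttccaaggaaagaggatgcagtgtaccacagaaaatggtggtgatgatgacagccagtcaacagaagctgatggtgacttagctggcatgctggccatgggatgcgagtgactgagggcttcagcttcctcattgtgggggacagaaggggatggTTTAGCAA
ADAMTS5 peak, chr21:28796597-28796896, plus strand: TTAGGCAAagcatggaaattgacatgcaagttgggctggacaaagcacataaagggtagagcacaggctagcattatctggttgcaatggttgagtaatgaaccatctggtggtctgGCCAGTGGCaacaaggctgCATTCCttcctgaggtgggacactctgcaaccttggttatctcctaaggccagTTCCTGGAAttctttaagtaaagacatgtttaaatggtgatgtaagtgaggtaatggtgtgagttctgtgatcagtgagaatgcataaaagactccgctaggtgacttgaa
The motifs searched, on both strands, were AP-1 (TGAGTCA), TEAD (GGAATG), ETS (CCGGAAG), RUNX (TGTGGTT), forkhead (TGTTTAC), C/EBP (TTGCNNAA), AP-2 (GCCNNNGGC) and STAT (TTCCNGGAA). The SPANXA1 sequence holds 1 TEAD and 2 C/EBP matches, the MAT2B sequence 1 forkhead match, the KIRREL3 sequence 1 AP-1, 1 forkhead and 1 C/EBP match, and the ADAMTS5 sequence 1 match each to TEAD, C/EBP, AP-2 and STAT. How common each motif is in the central 300 bases of all peaks is given further on. A match is a run of letters and not evidence that a factor binds.

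The far-distal peaks were mostly short, with a median length of 1033 bp (lowest 201, highest 9998). Their median distance to a protein-coding start was 205782 bp and the farthest lay 2469772 bp away. The median distance to an H3K4me3 peak was 110606 bp. They were poorer in G and C than the comparison set of 29757 peaks that also lay outside H3K4me3 but 2 to 100 kb from a start, with a median of 41.7% against 44.4%, and they held fewer CpG dinucleotides (medians of 7.63 and 9.95 per kb). The normalized H3K27ac count per kb was similar, with medians of 15.7 and 16.4.

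The name gene desert fits only part of the peaks. Of the 10291 peaks, 2788 (27.1%) lay inside the body of a protein-coding gene. Another 3035 (29.5%) lay in a gene for a long non-coding RNA (lncRNA) only. The remaining 4468 (43.4%) lay outside both kinds of gene, and overlap with other gene types was not checked. Introns held 2559 of the peaks in protein-coding genes and exons 229. A transcript start of any type lay within 2 kb of 950 peaks (9.23%). The starts searched here included those of non-coding transcripts of protein-coding genes. In the comparison set closer to promoters, 65.0% lay in protein-coding gene bodies.

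The peaks were spread over 1589 stretches, a stretch being the sequence between neighbouring protein-coding starts. The median stretch held 4 peaks, 369 stretches held 1, and the 325 stretches with at least 10 held 6196 of the peaks. Chromosome 2 carried the most (987), and the share of a chromosome's H3K27ac peaks that were far-distal ran from 1.20% on chromosome 19, which is rich in genes, to 31.0% on chromosome 13, which is poor in them.

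The libraries differed in depth, with 1994996 to 6450028 reads counted in H3K27ac peaks. Starts of KRT8, KRT18, VIM and CD44 carried H3K4me3 in all lines, and no H3K4me3 or H3K27ac peak lay at the starts of PTPRC (leukocytes), PECAM1 (endothelium) or ALB (hepatocytes). At CDH1, the epithelial cadherin, H3K4me3 was 2.01 to 8.03 CPM (counts scaled to the library total in the peaks of that mark) against 200 to 250 at VIM. EPCAM carried 36.4 to 72.5 CPM of H3K4me3. The start of ESR1, the estrogen receptor gene, carried 6.88 to 39.5 CPM of H3K4me3, so its highest library reached the range of EPCAM. Its H3K27ac was at most 7.29 CPM. KRT5 had no peak of either mark at its start. SYP had a peak of both marks, with at most 2.64 CPM of H3K4me3 and 4.96 of H3K27ac. The start of GFAP, an astrocyte gene, carried H3K27ac (89.2 to 180.6 CPM) but little H3K4me3 (2.295 to 9.53).

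The far-distal peaks held 8.51% and 7.24% of all H3K27ac peak counts in the 2 Par libraries, 9.13% and 8.40% in LM2, and 8.62% and 8.03% in BrM2. Replicate 2 was the lower one in each line, and within each replicate number Par was lowest and LM2 highest. Counts per peak were low, with a median of 7 in the shallowest library (BrM2 replicate 2) and 26 in the deepest (LM2 replicate 1), and 247 and 7 peaks held no read there. The median log2 fold change over the 3973 far-distal peaks whose normalized counts averaged 20 or more was 0.06 for LM2 vs Par and 0.01 for BrM2 vs Par. The called changes described below concern a minority of the peaks. Since the libraries are bulk populations, fewer cells with a mark and less of the mark per cell cannot be told apart.

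**Figure D1:**
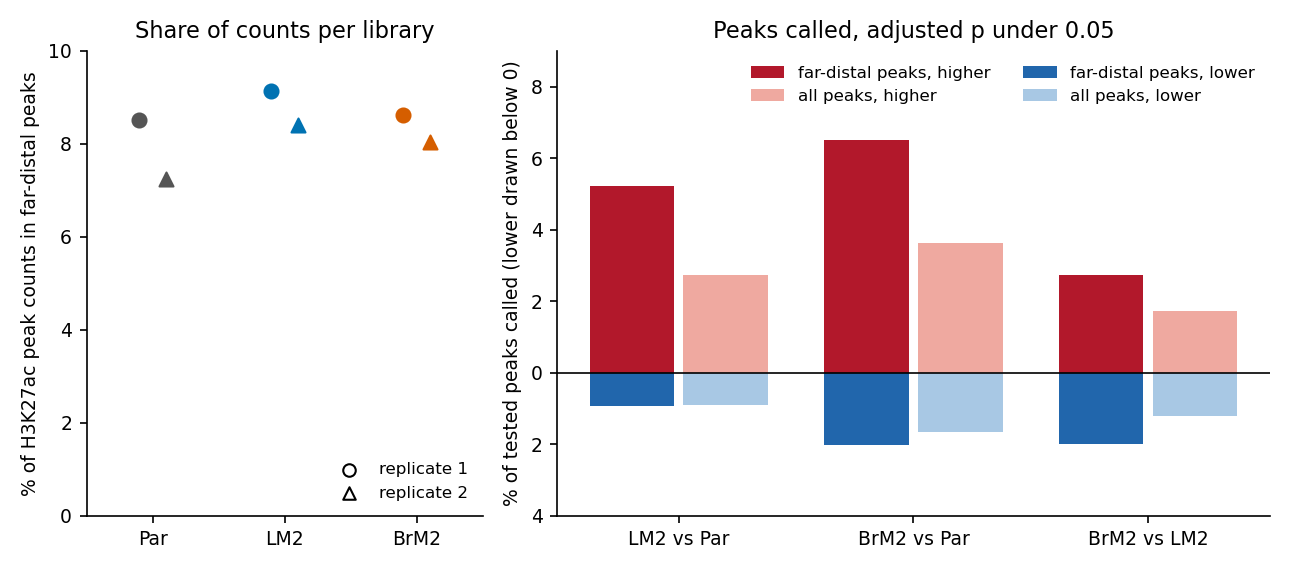
Left, percent of all H3K27ac peak counts that lay in far-distal peaks in each library (circle, replicate 1; triangle, replicate 2), between 7.24% and 9.13%. Right, percent of tested peaks with an adjusted p under 0.05 among the far-distal peaks and among all peaks, with peaks that were lower drawn below 0; the largest bar is 6.50% for BrM2 vs Par.

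LM2 had more H3K27ac than Par at 375 far-distal peaks and less at 66, out of 7170 with an adjusted p-value (DESeq2, adjusted over all peaks, adjusted p under 0.05). That is 5.23% higher and 0.92% lower, where all tested H3K27ac peaks gave 2.72% higher and 0.907% lower. BrM2 was higher than Par at 500 and lower at 156 of 7695 far-distal peaks (6.50% and 2.03%, against 3.62% and 1.67% of all peaks). The median change among called peaks was a log2 fold change of 2.51 for those higher in LM2 and 2.65 for those higher in BrM2, and -1.59 and -1.74 for those lower. With the 2 metastatic lines averaged, 451 of 7170 were higher and 124 lower than in Par (6.29% and 1.73%, against 3.33% and 1.52% of all peaks). The direct comparison of BrM2 with LM2 called 180 higher and 132 lower of 6600 (2.73% and 2.0%, against 1.71% and 1.22%). With edgeR and the replicate number as a block the balance turned, with 663 higher and 792 lower.

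At 201 peaks both metastatic lines were higher than Par and at 16 both were lower. No peak was called in opposite directions in the lines. Both comparisons share the Par libraries, and neither the overlap nor opposite calls were counted over all H3K27ac peaks. Whether they are a trait of far-distal peaks can therefore not be told. A further 174 peaks were called higher only in LM2 vs Par, of which 45 were also lower in BrM2 than in LM2, and 299 only in BrM2 vs Par, of which 97 were also higher than in LM2. For the others, a difference between LM2 and BrM2 was not called. For 2596 peaks DESeq2 gave no adjusted p-value in any comparison, and 1019 peaks were called in at least 1.

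These counts rested on 2 libraries per line. Without LM2 replicate 1 the peaks higher in LM2 than in Par fell to 98 and without BrM2 replicate 1 those higher in BrM2 fell to 135, and removal of Par replicate 1 or 2 left 131 and 127 for LM2 and 210 and 189 for BrM2. With the replicate number as a block, the peaks lower in LM2 than in Par rose from 66 to 117, those lower in BrM2 than in LM2 from 132 to 207 and those lower in both metastatic lines averaged from 124 to 188.

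The share of tested peaks that were higher in the metastatic lines was larger in each group farther from promoters, apart from BrM2 at 150 to 250 kb (5.03%). Among peaks outside H3K4me3 that lay 2 to 10 kb from a protein-coding start, 2.21% of those tested were higher in LM2 and 3.07% in BrM2. At 100 to 150 kb the values were 3.998% and 5.14%, at 500 to 1000 kb 6.79% and 9.42%, and beyond 1000 kb 13.9% (25 of 180) and 22.9% (44 of 192). In LM2 the share that was lower had no such trend and was 1.11% beyond 1000 kb. In BrM2 it was 1.30% at 2 to 10 kb, 2.65% at 250 to 500 kb, 1.79% at 500 to 1000 kb and 2.08% beyond 1000 kb.

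The 272 peaks beyond 1000 kb lay in 60 stretches, and 22 of these held a peak higher in BrM2. The median log2 fold change of the 91 whose normalized counts averaged 20 or more was 0.77 for LM2 and 0.70 for BrM2, while in every nearer group of far-distal peaks it was between -0.02 and 0.09. The stretch between SEL1L and FLRT2 gave 7 of the 25 and 9 of the 44 calls, and without it 10.7% and 19.4% were higher. After centring on the median of the peaks in the same 5 Mb window, 5.45% (9 of 165) and 14.6% (29 of 198) were higher. That median took in the far-distal peaks themselves, so centring can also remove a change that they share. With 1 library left out the values ran from 3.57% to 10.8% and from 7.33% to 20.1%. No test of the trend was made.

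**Figure D2:**
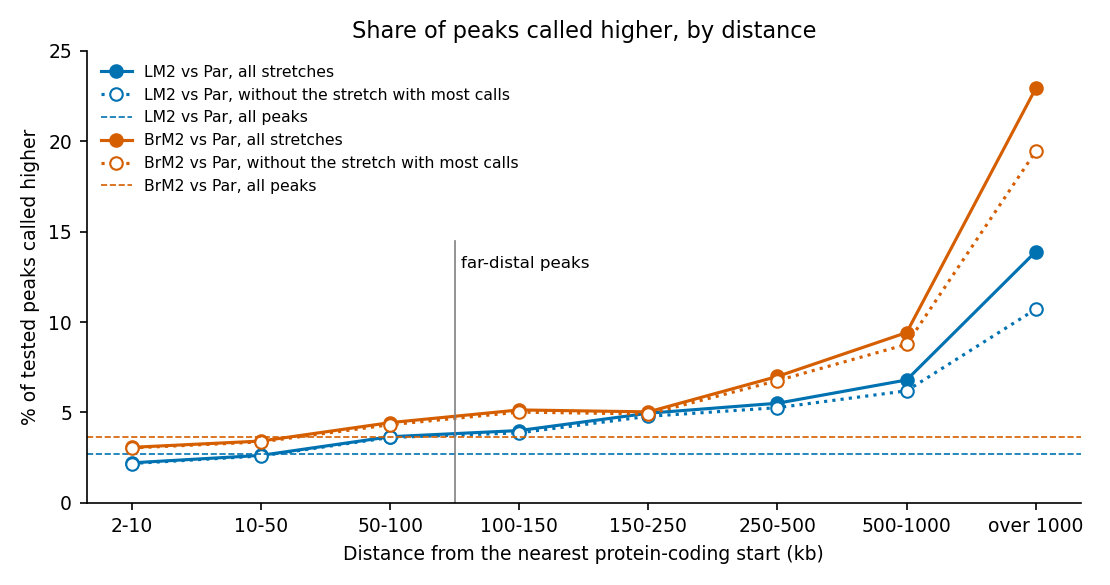
Percent of tested H3K27ac peaks outside H3K4me3 that were higher in LM2 (blue) or BrM2 (orange) than in Par, against the distance to the nearest protein-coding start in kb; peaks right of the grey line are the far-distal peaks. Open circles leave out the stretch with the most calls in each group and dashed lines are the shares over all peaks (2.72% and 3.62%); the share rose to 13.9% and 22.9% beyond 1000 kb.

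The peaks with the largest gain in LM2 were nearly free of reads in Par. The first lay at chrX:140555967-140558886, in an intron of the lncRNA gene SPANXA2-OT1 and 113974 bp from SPANXA1, a gene of the testis-specific SPANX family. Its normalized counts were 0.87 and 0 for Par, 74.0 and 72.9 for LM2 and 113 and 94.5 for BrM2. The ratio of LM2 to Par was 158 (95% exact interval from counts 28.1 to 6272) and the adjusted p was 0.000121. A second peak in the same lncRNA, at chrX:140498613-140501650 and 161963 bp from SPANXC, had 1.74 and 0 for Par, 44.3 and 52.2 for LM2, and 39.0 and 38.6 for BrM2. No library of Par reached either metastatic line at these peaks, and neither gene start carried a peak of H3K27ac or H3K4me3. SPANX genes are near-identical copies of each other, and reads that fit several copies cannot be assigned to one of them with certainty, so these values are uncertain.

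A peak 125068 bp from FOXF1, a forkhead factor of lung mesenchyme, had 0.87 and 1.00 for Par, 43.2 and 43.4 for LM2, and 19.5 and 21.2 for BrM2, a ratio of LM2 to Par of 46.4 (12.6 to 388) with adjusted p = 0.000199. The start of FOXF1 itself carried no H3K27ac or H3K4me3 peak. A peak 894341 bp from CDH11, a mesenchymal cadherin, had 1.74 and 1.00 for Par, 58.9 and 40.4 for LM2 and 40.0 and 26.99 for BrM2 (adjusted p = 2.11e-05). At the CDH11 start the H3K27ac counts were 76.7 and 69.1 for Par, 21.9 and 27.6 for LM2 and 67.3 and 73.3 for BrM2, so LM2 was the lowest line there. At the distal peak LM2 had the highest mean, but the direct test did not call it apart from BrM2 (BrM2 vs LM2 -0.55, adjusted p = 0.765).

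A peak at chr19:31616820-31620312 overlapped an exon of an unnamed lncRNA, 219849 bp from TSHZ3, a zinc-finger homeobox factor. It had normalized counts of 5.23 and 6.01 for Par, 171 and 157 for LM2 and 118 and 100 for BrM2, a log2 fold change of 4.87 ± 0.53 (SE) in LM2 (adjusted p = 1.2e-16) and 4.29 ± 0.53 for BrM2 (adjusted p = 1.38e-12). It kept its call with each library left out. A peak 110115 bp from PTCH1, the Hedgehog receptor, rose from 0.87 and 1.00 in Par to 25.8 and 39.4 for LM2 (adjusted p = 0.000958), a call that was lost without Par replicate 1 or 2.

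Of the 6 named peaks that were lower in LM2 than in Par, 3 were also lower in LM2 than in BrM2 by the direct test. At a peak in an intron of the calcium- and calmodulin-dependent kinase gene CAMK1D and 249377 bp from CCDC3, the normalized counts were 46.2 and 56.1 for Par, 4.49 and 1.97 for LM2, and 74.1 and 61.7 for BrM2. LM2 was lower than Par by 3.87 on the log2 scale (SE 0.63, adjusted p = 3.6e-07) and BrM2 was higher than LM2 by 4.29 (SE 0.63, adjusted p = 1.92e-08). The starts of CAMK1D and CCDC3 carried H3K4me3 in all 6 libraries, at 145 to 205 and 92.0 to 130 CPM.

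A peak 194216 bp from ARHGAP20, which encodes a GTPase-activating protein, had 40.9 and 43.1 for Par, 5.05 and 3.94 for LM2 and 48.8 and 42.4 for BrM2 (log2 fold change of LM2 vs Par -3.19 ± 0.61, adjusted p = 3.69e-05). A peak in the lncRNA SGO1-AS1, 135547 bp from the cohesin protector SGO1, fell from 145 and 136 for Par to 19.1 and 30.6 for LM2 and had 89.7 and 79.0 for BrM2. The other 3 lay in introns of the tubulin-modifying enzyme TTLL11 and the methyltransferase SMYD3, and at the T cell receptor beta segment TRBV5-5. The TRBV5-5 peak had 55.8 and 59.1 for Par and 14.0 and 11.8 for LM2, and its loss was not called after centring on its 5 Mb window (log2 fold change -1.46, adjusted p = 0.0835). The SMYD3 and TRBV5-5 calls were lost without any of the 4 libraries compared.

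Besides the SPANXA1 peak, the peaks with the largest gains in BrM2 included a peak 444458 bp from SQOR and in the stretch that ends at the semaphorin gene SEMA6D. It had 0.87 and 0 for Par, 6.17 and 2.96 for LM2 and 82.9 and 57.8 for BrM2. The ratio of BrM2 to Par was 160 (28.1 to 6366, adjusted p = 0.000177) and BrM2 was higher than LM2 by 3.88 on the log2 scale (SE 0.65, adjusted p = 2.19e-06).

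A peak at chr3:77370136-77371593, in an intron of ROBO2, a receptor for SLIT guidance ligands, had 1.74 and 0 for Par, 19.6 and 15.8 for LM2 and 54.6 and 46.3 for BrM2 (adjusted p = 6.56e-05 for BrM2 vs Par). H3K4me3 at the ROBO2 starts was 3.15 and 5.81 CPM for Par, 24.6 and 26.9 for LM2 and 52.0 and 56.0 for BrM2, so the lines stood in the same order in both marks. A peak 357597 bp from the adhesion gene CADM2 had 0.87 and 1.00 for Par, 16.3 and 12.8 for LM2 and 48.8 and 50.1 for BrM2 (adjusted p = 7.81e-05). The 7 other H3K27ac peaks within 2.5 Mb had a median log2 fold change of 4.01 in BrM2 vs Par, so the gain was not particular to this peak. Its call was kept after centring on its 5 Mb window (adjusted p = 0.011). H3K4me3 at CADM2 was 14.6 and 22.8 in Par, 17.2 and 31.3 for LM2 and 49.3 and 75.6 CPM in BrM2.

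The gain with the lowest adjusted p among the 6 named for BrM2 vs Par was at chr5:163629668-163631646, 686839 bp from MAT2B and in the stretch that ends at the teneurin gene TENM2. It had 3.49 and 1.00 for Par, 1.68 and 1.97 for LM2, and 132 and 106 for BrM2. The log2 fold change was 5.69 ± 0.78 against Par (adjusted p = 2.07e-10) and 6.06 ± 0.78 against LM2 (adjusted p = 1.82e-11). A sixth peak, in the lncRNA LINC02055 and 1251056 bp from KHDRBS3, had 82.9 and 19.3 in the BrM2 replicates and lost its call without BrM2 replicate 1.

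The largest losses in BrM2 included a pair of peaks between PRAG1, which encodes a pseudokinase, and the claudin gene CLDN23, on chromosome 8. The stronger one had normalized counts of 109 and 100 for Par, 160 and 109 for LM2 and 16.6 and 15.4 for BrM2, a log2 fold change of -2.70 ± 0.46 (adjusted p = 1.03e-06). The other had 82.8 and 72.1 for Par, 61.7 and 67.0 for LM2 and 10.7 and 7.71 for BrM2. H3K4me3 at PRAG1 was 136 and 143 CPM for Par, 127 and 139 for LM2, and 15.7 and 15.7 for BrM2, and at CLDN23 it was 75.9 and 52.4, 78.0 and 59.0, and 9.17 and 7.68, so both neighbouring promoters were lowest in BrM2. The 68 other H3K27ac peaks within 2.5 Mb had a median log2 fold change of -1.51, and neither call was kept after window centring (adjusted p = 0.379 and 0.263). Loss of DNA copies and loss of H3K27ac cannot be told apart from these files.

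Of the other BrM2 losses, a peak 173870 bp from JADE1, a subunit of histone acetyltransferase complexes, had 39.2 and 46.1 for Par, 28.1 and 22.7 for LM2 and 4.88 and 3.86 for BrM2 (log2 fold change -3.25 ± 0.74, adjusted p = 0.000923), a call that was lost without BrM2 replicate 1. The peaks near INTU and FAM9C lost their calls without either BrM2 replicate or Par replicate 1, and the FAM9C peak without Par replicate 2. The FAM9C call was also not kept after window centring (log2 fold change -1.53, adjusted p = 0.358), where 48 other H3K27ac peaks within 2.5 Mb had a median log2 fold change of -1.41.

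The direct comparison of the metastatic lines named 4 peaks higher in BrM2, of which the first is the MAT2B peak. The second lay in an intron of KIRREL3, an adhesion molecule of the immunoglobulin superfamily, at chr11:126685582-126688120, with 6.10 and 7.01 for Par, 2.81 and 0.99 for LM2 and 101 and 84.8 for BrM2. BrM2 was higher than LM2 by 5.48 (SE 0.75) on the log2 scale (adjusted p = 5.81e-10). The KIRREL3 start, 182296 bp away, had H3K4me3 of 0.29 and 1.04 CPM for Par, 0.23 and 1.32 for LM2 and 24.9 and 50.3 for BrM2. The other 2 lay in the stretch between ADAMTS5 and N6AMT1 on chromosome 21, described below.

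The peaks lowest in BrM2 relative to LM2 included the PRAG1 peak described above, a peak 1020722 bp from the glypican gene GPC5 and a peak 274274 bp from the homeobox gene IRX1. The GPC5 peak had 11.3 and 13.0 for Par, 67.3 and 57.2 for LM2 and 5.85 and 9.64 for BrM2, so it was high in LM2 (LM2 vs Par 2.36 ± 0.55, adjusted p = 0.00141). The IRX1 peak had 35.7 and 27.04 for Par, 64.0 and 44.4 for LM2 and 9.75 and 1.93 for BrM2 (BrM2 vs LM2 -3.02 ± 0.66, adjusted p = 0.000821). The call of the GPC5 peak was lost without LM2 or BrM2 replicate 1 and that of the IRX1 peak without either BrM2 replicate or LM2 replicate 1. At the starts of IRX1 and IRX2, H3K4me3 was 42.4 and 47.2 and 12.6 and 7.30 CPM for Par, 61.3 and 69.9 and 58.8 and 56.8 for LM2, and 3.27 and 6.07 and 2.40 and 2.97 for BrM2. In H3K27ac, the IRX1 start had 34.0 and 49.1 normalized counts for Par, 25.8 and 42.4 for LM2 and 4.88 and 1.93 for BrM2. BrM2 was thus lowest at the peak and at both promoters, while LM2 and Par overlapped in H3K27ac at the IRX1 start, and LM2 vs Par was not called at the peak (adjusted p = 0.597).

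**Figure D3:**
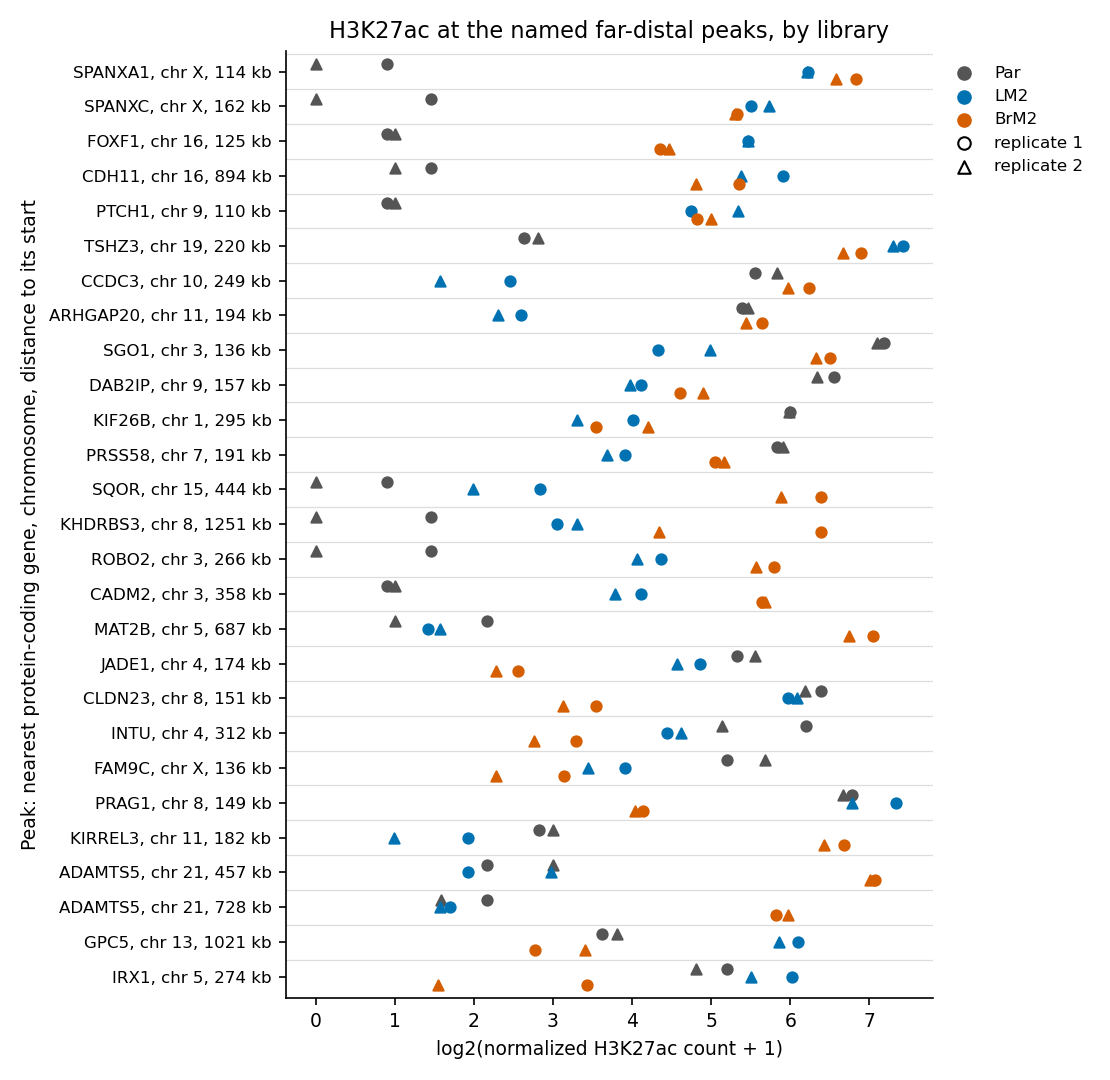
Normalized H3K27ac counts of the named far-distal peaks on a log2(count + 1) axis, with 1 symbol per library (grey, Par; blue, LM2; orange, BrM2) and each row labelled by the nearest protein-coding gene, the chromosome and the distance to its start. The replicates of a line mostly lie together, and at the KHDRBS3 peak they lie apart, with 82.9 and 19.3 in BrM2.

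Of all tested H3K27ac peaks, 2.72% were higher and 0.907% lower in LM2 than in Par, and 3.62% and 1.67% in BrM2. Beside these shares, which were not compared by a test, stand the 8 stretches with the most far-distal peaks. They were MYC to GSDMC (81 peaks, of which 71 lay in lncRNA genes), METTL15 to KCNA4 (63), CITED2 to GJE1 (62), DUSP4 to SARAF (50), NUDT12 to EFNA5 (49), KLF6 to AKR1E2 (48), AGA to TENM3 (47) and ZEB2 to ACVR2A (45). Beside MYC, the summed normalized counts of the 81 peaks were 2089 and 2038 for Par, 1788 and 1761 for LM2 and 2056 and 2101 for BrM2. Of those tested, 1 was higher and 1 lower in LM2 (of 54), and 1 was higher and 2 were lower in BrM2 (of 59). Beside CITED2, a transcriptional coregulator, none of 40 was called in LM2 and 1 of 44 was higher in BrM2. In the stretch beside KLF6, a zinc-finger factor, the sums were 2796 and 2148 for Par, 1805 and 1713 for LM2 and 2362 and 2067 for BrM2, and 1 peak was higher and 2 were lower in LM2 of 38 tested. Across all 8, the largest number of calls in 1 direction was 3, for peaks higher in LM2 beside ZEB2, a repressor of epithelial genes, and none of the 3 was kept after window centring.

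Of the 500 peaks higher in BrM2 than in Par, 317 (63.4%) lay in 105 stretches that held at least 2 of them, and for the 375 higher in LM2 these values were 210 (56.0%) in 73 stretches. The peaks themselves are spread unevenly over stretches, and these shares were not set against that spread. The stretches described next were picked for their number of calls, so the H3K27ac values are a description. H3K4me3 is given as the summed CPM of the H3K4me3 peaks between the flanking starts. Its counts were not used to pick the stretches, but H3K27ac peaks that overlapped H3K4me3 had been left out. The H3K4me3 peaks were called on merged libraries, so some may exist only through the line where they are high, and these sums are also a description.

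Between ADAMTS5, an aggrecan-cleaving protease, and the methyltransferase gene N6AMT1 (1918 kb, 14 peaks), 10 of 11 tested peaks were higher in BrM2 than in Par and 7 of 8 were higher than in LM2. The 11 peaks within 729 kb of ADAMTS5 all had under 8 normalized counts in every Par and LM2 library, and 13.5 to 163 in BrM2. Farther on, a peak 1670 kb from ADAMTS5 had 212 and 207 for Par, 178 and 175 for LM2 and 287 and 249 for BrM2 and was not called (log2 fold change of BrM2 vs Par 0.36, adjusted p = 0.621). The calls therefore covered only the ADAMTS5 side of the stretch. H3K4me3 between the starts was 1.43 and 2.98 for Par, 3.44 and 5.69 for LM2 and 26.4 and 43.5 for BrM2, and at the ADAMTS5 start it was 0 and 0.30, 0 and 0.41, and 6.55 and 11.4 CPM.

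Between NETO1, which encodes an auxiliary subunit of glutamate receptors, and FBXO15 (1256 kb, 9 peaks), the summed normalized counts were 7 and 8 for Par, 13 and 12 for LM2, and 291 and 243 for BrM2. All 7 tested peaks were higher in BrM2 than in Par, and all 5 tested were higher than in LM2. After window centring 3 and 2 were called, where the 23 other H3K27ac peaks in and within 2.5 Mb of this stretch had medians of 0.77 and 1.01. The summed H3K4me3 was 0.29 and 0.74 for Par, 0.46 and 0.41 for LM2, and 30.8 and 52.7 for BrM2. At the FBXO15 start H3K4me3 was 28.7 to 30.6 CPM in Par and LM2 and 52.0 and 34.1 in BrM2.

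Between GOT2 and the cadherin gene CDH8 (3287 kb, 8 peaks) both metastatic lines gained. The sums were 16 and 7 for Par, 173 and 172 for LM2 and 350 and 281 for BrM2, with 7 of 7 tested peaks higher in BrM2 and 2 of 7 for LM2. H3K4me3 between the starts was 0.86 and 1.04 for Par, 14.9 and 14.9 for LM2 and 38.9 and 49.5 for BrM2, while neither mark had a peak at the CDH8 start. The 85 other H3K27ac peaks in and within 2.5 Mb of this stretch had a median log2 fold change of 0.04 for LM2 and 0.11 for BrM2, and all 7 calls in BrM2 were kept after window centring. In the ADAMTS5 stretch none of the calls was kept after centring, and the 58 other peaks there had a median of 0.20. The window medians include the far-distal peaks, so the lost calls do not show a change of the other peaks.

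LM2 had the most calls between FZD8, a Wnt receptor, and ANKRD30A (1483 kb, 21 peaks), where 8 of 13 tested peaks were higher than in Par and 5 after window centring. The sums were 224 and 166 for Par, 1263 and 787 for LM2 and 696 and 603 for BrM2. The strongest of these, 894 kb from FZD8, had 70.6 and 51.1 for Par, 495 and 264 for LM2 and 290 and 199 for BrM2 (LM2 vs Par 2.64, adjusted p = 6.87e-10). H3K4me3 between the starts stayed at or under 1.63 CPM in all libraries, while at the FZD8 start it was 130 and 100 for Par, 260 and 190 for LM2 and 212 and 160 for BrM2. In introns of NALF1, in the stretch from ARGLU1 to NALF1 (15 peaks, all inside the gene), the sums were 115 and 101 for Par, 628 and 618 for LM2 and 510 and 418 for BrM2. H3K4me3 at the NALF1 start was 100 and 84.2 for Par, 277 and 230 for LM2 and 147 and 143 for BrM2.

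Between SEL1L and FLRT2, a fibronectin-type and leucine-rich adhesion protein, 7 of 18 tested peaks were higher in LM2 and 9 of 19 in BrM2, but the peaks split by position. The called gains lay 1474 to 2949 kb from SEL1L, and no peak from 3634 kb onward, toward FLRT2, was called in either line. The strongest of the latter, at 3717 kb, had 54.9 and 51.1 for Par, 24.1 and 19.7 for LM2 and 32.2 and 30.8 for BrM2. None of the calls in this stretch was kept after window centring, where the 25 other H3K27ac peaks had medians of 0.48 for LM2 and 0.28 for BrM2. H3K4me3 between the starts was 2.58 and 5.06 for Par, 25.9 and 33.0 for LM2 and 15.9 and 28.1 for BrM2.

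Between the heparan sulfate enzyme gene HS3ST1 and RAB28 (25 peaks) the sums were 1788 and 1404 for Par, 848 and 781 for LM2 and 1163 and 975 for BrM2, with 4 of 19 tested peaks lower in LM2 and none after window centring. In the stretch from OR4E1 to DAD1, which contains the T cell receptor alpha locus, the sums were 498 and 494 for Par, 188 and 218 for LM2 and 524 and 536 for BrM2, with 4 of 11 lower in LM2 than in Par and 4 of 10 higher in BrM2 than in LM2. After centring none and 2 were called. On the X chromosome, between DIPK2B and KRBOX4 (38 peaks), 8 of 28 tested peaks were lower in BrM2 and the sums were 1532 and 1339 for Par, 1057 and 1053 for LM2 and 607 and 565 for BrM2. H3K4me3 between these starts was also lowest in BrM2, with 318 and 371 for Par, 269 and 298 for LM2 and 141 and 174 CPM for BrM2. The 95 other H3K27ac peaks there had a median log2 fold change of -1.05, and none of the 8 calls was kept after window centring. Between KIRREL3 and ETS1, an ETS family factor, 5 of 25 tested were lower in BrM2 and 2 after centring, with sums of 2334 and 1890 for Par, 1833 and 1735 for LM2 and 1060 and 1041 for BrM2.

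**Figure D4:**
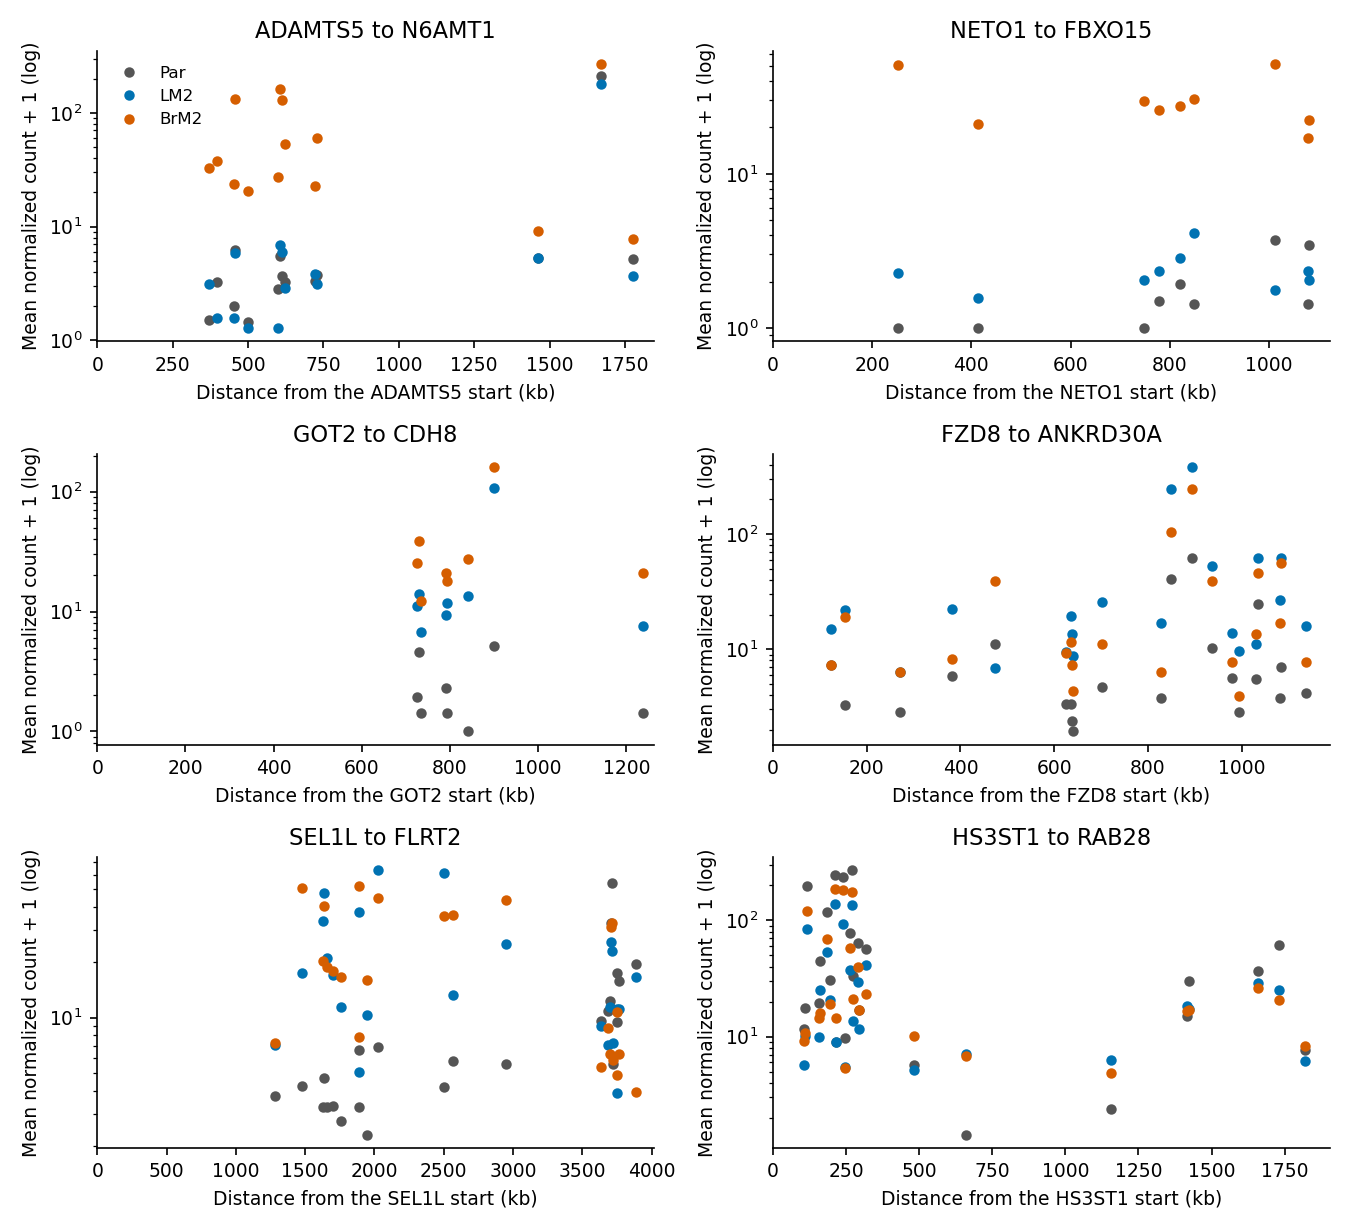
Mean normalized H3K27ac count + 1 (log axis) of each far-distal peak in 6 stretches against its distance in kb from the left protein-coding start (grey, Par; blue, LM2; orange, BrM2; mean of 2 replicates). In ADAMTS5 to N6AMT1 10 of the first 11 peaks were called higher in BrM2, and the peak 1670 kb from ADAMTS5 was strong in all lines.

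**Figure D5:**
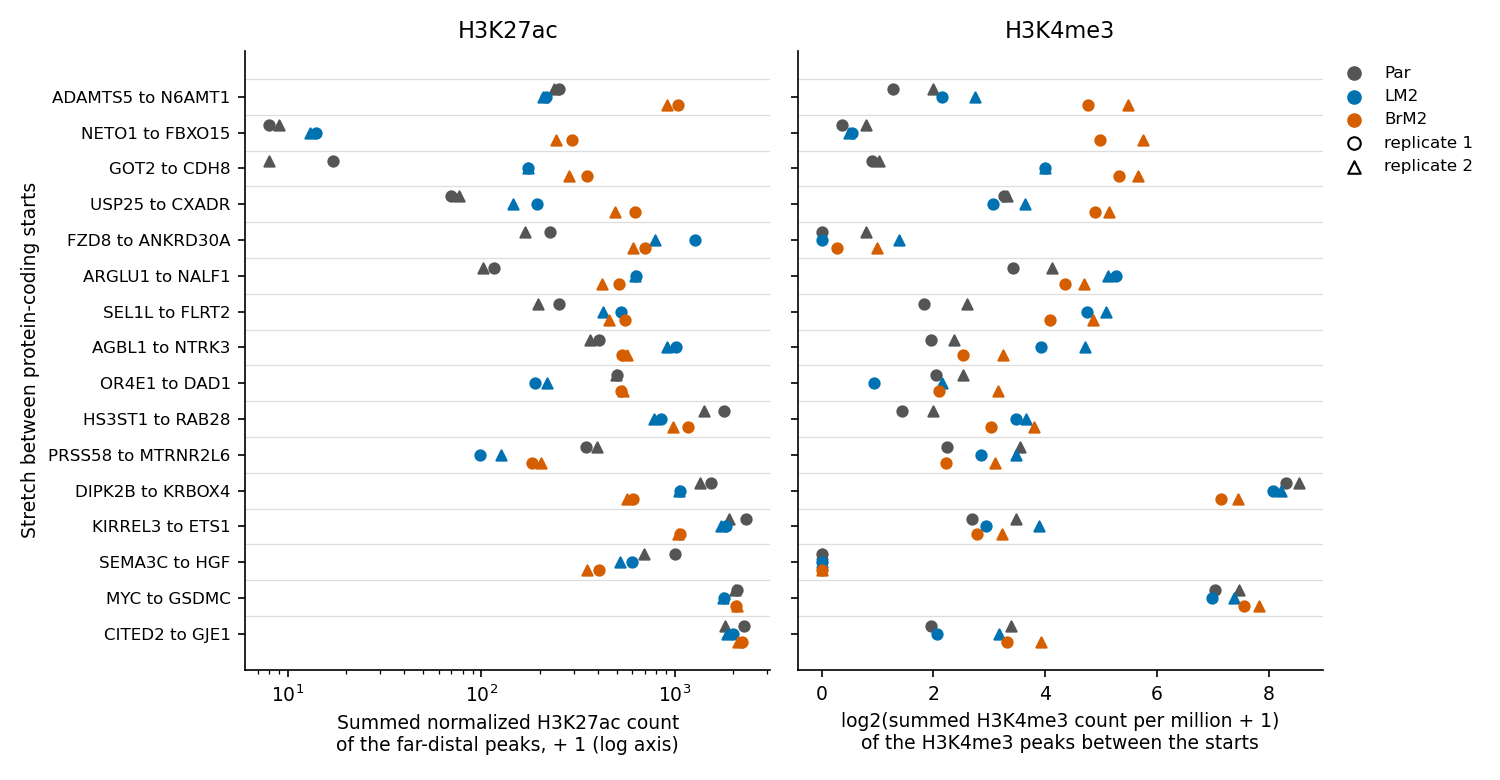
Summed normalized H3K27ac counts of the far-distal peaks (left, log axis) and summed H3K4me3 CPM between the flanking starts (right, log2(value + 1)) in 16 stretches, with 1 symbol per library. In NETO1 to FBXO15 the BrM2 libraries stood far above Par and LM2 in both marks (291 and 243 against at most 13 for H3K27ac), and in FZD8 to ANKRD30A H3K4me3 stayed near 0.

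On chromosome 13 the median log2 fold change of the far-distal peaks in LM2 was 0.63 and 32 of 390 tested were higher and none lower, while in BrM2 the median was 0.02. On the X chromosome the medians were -0.56 for LM2 and -0.73 for BrM2, and 20 of 169 tested peaks were lower in BrM2. On chromosome 21, 20 of 59 tested were higher in BrM2 and 3 of 55 for LM2. Of these 20, 10 lay between ADAMTS5 and N6AMT1 and 6 between USP25 and CXADR. Calls over all H3K27ac peaks of a chromosome were not counted, so far-distal and chromosome-wide changes cannot be told apart here. Chromosome 2 had the most peaks higher in BrM2 (66 of 731). After window centring, 267 (71.2%) of the 375 peaks higher in LM2 and 368 (73.6%) of the 500 higher in BrM2 kept their call, but 21 (31.8%) of the 66 lower in LM2 and 75 (48.1%) of the 156 lower in BrM2.

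The genes that flank the far-distal peaks were grouped by 3 lists, which were drawn up with earlier results of these data known and so give no independent support. Genes of cell adhesion and axon guidance flanked 912 peaks, at 80 of the 94 genes listed. Of these peaks, 71 of 606 tested were higher in LM2 (11.7%) and 125 of 657 in BrM2 (19.0%), with 3 and 16 lower, where all far-distal peaks gave 5.23% and 6.50% higher and all H3K27ac peaks 2.72% and 3.62%. The peaks higher in BrM2 included those that flanked FLRT2 (11 of 21 tested), CDH8 (10 of 12), ROBO2 (7 of 11), CDH9 (7 of 12), TENM2 (7 of 8) and CDH18 (6 of 7). Those lower included peaks that flanked KIRREL3 (5 of 27, with 2 higher) and the semaphorin SEMA3C (4 of 15). CDH8, CDH9 and CDH18 are classical cadherins of neurons. These peaks lay farther out than most, with a median distance of 375838 bp and 38.4% beyond 500 kb against 13.8% of all far-distal peaks.

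Lineage and developmental transcription factors flanked 1217 far-distal peaks, of which 52 of 860 tested were higher in LM2 (6.05%) and 43 of 919 in BrM2 (4.68%), with 11 and 25 lower, where 5.23% and 6.50% of all far-distal peaks were higher. Beside TFAP2C, which encodes an AP-2 factor, 6 of 12 were higher in LM2 and 4 of 13 in BrM2, beside POU3F2, a neural POU factor, 3 of 5 and 4 of 5, and beside the T-box gene TBX3 4 of 9 and none of 9. The long tract beside SOX9 had 80 peaks, of which 3 of 51 were higher in LM2 and 1 of 55 was lower in BrM2, and GATA3, the luminal regulator, had 44 peaks with 1 of 33 lower in LM2 and none of 33 called in BrM2. RUNX2 had 3 of 23 lower in BrM2. Secreted signals and matrix genes flanked 783 peaks, with 30 of 568 higher in LM2 (5.28%) and 40 of 602 in BrM2 (6.64%). TNC, the matrix glycoprotein tenascin C, had 6 of 21 higher in LM2 and 1 of 23 in BrM2, and ADAMTS5 had 10 of 11 higher in BrM2. HGF had 4 of 17 lower and 1 higher in BrM2. The 4 lower peaks lay between SEMA3C and HGF and are the same as those given for SEMA3C.

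In the central 300 bases, 12.2% of the far-distal peaks held an AP-1 match, against 11.4% of the comparison set at 2 to 100 kb and 9.67% of all H3K27ac peaks. The TEAD letters were found in 19.1%, 18.0% and 16.7%, C/EBP in 15.2%, 12.9% and 11.9%, RUNX in 6.83%, 6.49% and 5.69%, and forkhead in 4.75%, 4.22% and 3.85%. ETS and AP-2, whose motifs are rich in G and C, were less frequent in far-distal peaks, with 0.80%, 1.10% and 2.95% in the same order of sets for ETS and 4.32%, 6.10% and 12.01% for AP-2. All peaks include those in H3K4me3, of which 7.14% and 25.9% held these motifs. STAT was found in 1.04%, 0.88% and 0.95%. Among peaks called higher, AP-1 was in 14.7% for LM2 (55 of 375) and 12.6% for BrM2 (63 of 500), beside 15.2% of all far-distal peaks whose normalized counts averaged 20 or more. In the direct comparison, 5.00% of the peaks higher in BrM2 (9 of 180) and 18.2% of those lower (24 of 132) held AP-1. These shares were not tested.

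The far-distal peaks with the highest count per kb that were called in no comparison lay largely beside assembly gaps. Of the 6, 4 lay within 5.56 kb of an assembly gap of at least 1 Mb, at the edge of a centromere. The highest, at chr6:58776411-58779071 and 1383299 bp from PRIM2, had normalized counts of 1943 and 2082 for Par, 1584 and 1691 for LM2 and 1984 and 2441 for BrM2, or 734 per kb against a median of 15.7 per kb. A pair on chromosome 19 lay 1970664 and 1965409 bp from UQCRFS1 and had 200 and 104 normalized counts per kb. The remaining 2 lay 108734 bp from ANKRD30BL and in an intron of SLCO5A1. Sequence next to centromeres is repetitive and often collects excess reads in ChIP-seq, and the input libraries were not analysed here.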

How the data were processed

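H3K27ac and H3K4me3 ChIP-seq libraries of Par, LM2 and BrM2, 2 biological replicates of each, were analysed; the 3 input libraries were not used. According to the methods of the study and the submitters' processing notes, the authors trimmed reads (Trimmomatic 0.32), aligned them to hg19 (Bowtie2 2.3.4.3), marked duplicates (Picard 2.18.21), called broad consensus peaks per mark on merged libraries (MACS2 2.1.2) and deposited raw read counts per peak (featureCounts 1.6.0, reads extended by 150 bp, no strand). Merged calling favours regions that are strong in any line, and the counts carry no correction for DNA copy number.

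Distances, locations and sequences came from GENCODE release 44 lifted to GRCh37 and the GRCh37 genome. The members and the gene and motif lists were chosen with earlier results of these data known. All 62195 H3K27ac peaks were tested in 1 fit of the 6 libraries (DESeq2 1.42.0, Wald test, median-of-ratios size factors, Benjamini-Hochberg adjusted p under 0.05; 3 residual degrees of freedom), and the metastatic comparison averaged LM2 and BrM2. The test was checked on simulated counts. Normalized counts are counts divided by size factors, and fold changes are unshrunken. H3K4me3 is given as CPM, relative to the total count in H3K4me3 peaks. For peaks with 1 to 3 counts in a line, the ratio is given with its exact 95% interval, which covers counting error only.

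Named peaks were, out of the called ones averaging 20 or more normalized counts with non-overlapping libraries, the 6 largest and 6 smallest fold changes against Par for each line and 4 and 4 for BrM2 vs LM2, plus the 6 uncalled peaks with the highest count per kb and the 8 stretches with most peaks. Some items that met these rules, and 2 sequences, are not reported here. Genes and stretches singled out for their calls were chosen after their values were seen. Same-numbered libraries deviated together (correlations over 33591 peaks of 0.34, 0.47 and 0.38 between lines), so a pairing by replicate number was read from the data and not from the labels. The reported counts and adjusted p-values come from a fit of cell line only, without this pairing. Alternatives were edgeR 4.0.16, a replicate block, other size factors, filters, distances and thresholds, centring in 5 Mb windows, and leaving out each library. Centring used the median of the stronger peaks of a window, far-distal ones included, or of the chromosome where a window held few.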

Additional observations from a re-analysis of the deposited data

Results flagged for a closer look

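At 14 named peaks the change against Par differed between the metastatic lines by the direct DESeq2 test of BrM2 vs LM2. BrM2 was higher, by log2 fold changes of 6.06 at the MAT2B peak, 5.48 at KIRREL3, 4.87 and 4.78 at the pair near ADAMTS5, 4.29 at CCDC3, 3.88 at SQOR, 3.32 at ARHGAP20, 2.71 at KHDRBS3 and 1.81 at SGO1. BrM2 was lower, by -3.09 at GPC5, -3.07 at PRAG1, -3.02 at IRX1, -2.75 at CLDN23 and -2.51 at JADE1. Peaks were named partly for their size in this comparison, so these values describe them.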

How the results depend on the processing

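Counts of called far-distal peaks are given in the order LM2 vs Par higher and lower, BrM2 vs Par higher and lower, metastatic vs Par higher and lower, and BrM2 vs LM2 higher and lower. They were 375, 66, 500, 156, 451, 124, 180 and 132 as reported. edgeR's quasi-likelihood test gave 697, 137, 755, 291, 702, 263, 298 and 275, and with the replicate block 1244, 495, 1175, 723, 1214, 686, 663 and 792. An adjusted p under 0.01 left 216, 28, 317, 67, 277, 50, 102 and 60. A distance over 200 kb left 222, 31, 312, 93, 293, 67, 97 and 63, and a distance over 100 kb from the start of any gene type 54, 3, 82, 15, 69, 7, 26 and 15. The DESeq2 replicate block raised the lower peaks to 117 for LM2, 188 for metastatic vs Par and 207 for BrM2 vs LM2. Centring in 5 Mb windows reduced the lower peaks to 39, 98, 77 and 79, and size factors from peaks in H3K4me3 reduced those lower in LM2 to 39. For these counts the cause was not tested beyond the fewer peaks kept by the stricter distances. Leaving out 1 library gave 98 to 277, 6 to 41, 135 to 394, 16 to 100, 137 to 290, 11 to 59, 19 to 141 and 3 to 89, and where a line kept 1 library it was assumed to vary like the others. TMM factors, a mean raw count of at least 10 and, chosen after seeing the data, peaks outside protein-coding gene bodies or over 100 kb from every transcript of such genes kept all 8 counts within 1.5 times. For the named peaks, 359 of 390 alternatives kept the call, 31 lost it with the same direction, and none reversed; the replicate block changed no call of a named peak. Shallow counts, with a median of 7 reads per peak in BrM2 replicate 2, limit what can be called.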

Other observations

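Far-distal peaks without any read were few: 23 of 10291 had none in both Par libraries, 2 in both LM2 libraries and 11 in both BrM2 libraries, and 9770 had reads in every library. Replicates of the 3973 stronger far-distal peaks correlated across peaks with r of 0.90 in Par, 0.87 in LM2 and 0.91 in BrM2 on the log2 scale, and libraries of different lines with 0.57 to 0.70. Over all 33591 H3K27ac peaks of that strength the values between lines were 0.79 to 0.86. Peaks are not independent replicates, and these values are descriptions.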
